A study of Mus musculus with 4 samples.

Results

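The neural cell-adhesion genes L1cam, Chl1, Nrcam, Nfasc, Ncam1, Ncam2, Nrxn2 and Nrxn3 were followed through mouse small cell lung cancer, a neuroendocrine carcinoma. They were chosen by name, as the rows whose gene symbol equals one of these 8 names, and all 8 were found among the 30406 identifiers shared by the 4 matrices. The study sequenced single cells of lung tumours and of tumours grown from implanted cells in 4 libraries, 1 for each group. Each comparison below is therefore between 2 libraries, has no replicate check and carries no p-value.

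The lung libraries are labelled RPR2 and CRPR2 and come from mice in which tumours were started by deleting genes. The labels do not spell out the alleles, although work on this cancer uses RPR2 for mice whose lung cells lack Rb1, Trp53 and Rbl2, and CRPR2 where Cracd, a regulator of actin, is deleted as well. The other libraries are allografts of preSC, a mouse neuroendocrine cell line, labelled preSC_WT and preSC_CracdKO with the genotypes WT and CracdKO. The labels give no age, sex, host strain, clone number or time of growth, and they do not say how many animals a library holds. Cracd, listed as C530008M17Rik, stood at 31.6 CPM (counts scaled to library size) in tumour cells of RPR2 and 23.7 CPM in those of CRPR2, beside 6.48 CPM for preSC_WT and 84.3 CPM for preSC_CracdKO. Its level in the allografts thus went against the labels, so that sample is called the library labelled preSC_CracdKO throughout, and no direction below is read as an effect of the gene's loss.

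L1cam, Chl1, Nrcam and Nfasc encode the L1 family of immunoglobulin adhesion proteins, which span the membrane, bind one another and other surface proteins, and hold on to the spectrin skeleton through ankyrins. Ncam1 encodes NCAM, the CD56 antigen used to stain small cell lung cancer, and Ncam2 its olfactory relative; both bind to themselves on neighbouring cells. Nrxn2 and Nrxn3 encode neurexins, presynaptic receptors that bind neuroligins, LRRTMs, cerebellins and latrophilins across the synaptic cleft, and each gene has a distal promoter for the long alpha form and an internal one for the short beta form.

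Cells were sorted into classes by clustering each pair of libraries, with the 8 genes left out of the genes that made the clusters, and clusters were named from marker genes. The neuroendocrine tumour class held 3055 of 8869 cells in RPR2, 6597 of 10798 in CRPR2, 12797 of 18111 in preSC_WT and 13529 of 14035 in the library labelled preSC_CracdKO. Of 25 tumour markers, 23, 23, 24 and 25 reached 20 CPM in these cells, and none was at 0. The tumour classes held between 22347300 and 87361300 unique molecular identifiers (UMIs), with medians per cell of 6059, 3368, 4880 and 5855 in the same order. The pair of lung libraries shared 36 cell barcodes and the allografts 79. Levels are the UMIs of a gene scaled to all UMIs of the class (CPM), and every interval given covers counting error at 95% only.

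The genes lie on 7 chromosomes of the mouse build mm10 and differ widely in the length of genome they span (positions from GENCODE). L1cam is on X (73853778 to 73896105, minus strand, 42.3 kb), Chl1 on 6 (103510586 to 103750211, plus, 239.6 kb) and Nfasc on 1 (132564690 to 132741797, minus, 177 kb). Nrcam (44328885 to 44601964, plus, 273 kb) and Nrxn3 (88722876 to 90334935, plus, 1612 kb) are both on 12. Ncam1 is on 9 (49502136 to 49798925, minus, 297 kb), Ncam2 on 16 (81200697 to 81626828, plus, 426 kb) and Nrxn2 on 19 (6418731 to 6544169, plus, 125 kb). L1cam overlaps the protein-coding genes Arhgap4 and Avpr2, 1 of them on its own strand, and Nrxn2 overlaps Slc22a12, which lies on the other strand. Of annotated genes that are not protein-coding, 5 overlap Chl1 on its own strand, 3 Nrxn3, 2 Ncam2 and 2 Nrcam. How UMIs in the overlaps were assigned was not tested. The matrices count whole genes, so the alpha and beta forms of a neurexin were not separated.

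Chl1 and Nrxn3 gave wide contrasts between the allografts, and the 250 bases upstream of their RefSeq starts (GRCm38.p6, 5′ to 3′ on the gene's strand) are shown for that reason, with each CG dinucleotide in capitals. The Chl1 entry lies at chr6:103510626-103510875 on the plus strand and holds 8 CG, close to the median of 6 over 32851 RefSeq entries. Nrxn3 has 3 entries on the plus strand, at chr12:88794254-88794503, chr12:88953140-88953389 and chr12:89812233-89812482, with 2, 5 and 12 CG. All 3 lie inside the annotated gene, which begins at 88722876. The Chl1 entry also lies inside its annotated gene, which begins at 103510586. Whether transcripts start at any of these entries in these cells was not tested.
Chl1: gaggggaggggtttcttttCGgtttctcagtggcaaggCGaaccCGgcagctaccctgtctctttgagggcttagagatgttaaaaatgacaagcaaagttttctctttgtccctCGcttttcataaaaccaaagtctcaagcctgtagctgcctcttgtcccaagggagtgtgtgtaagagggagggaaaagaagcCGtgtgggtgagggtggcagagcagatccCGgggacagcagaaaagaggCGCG
Nrxn3 entry 1: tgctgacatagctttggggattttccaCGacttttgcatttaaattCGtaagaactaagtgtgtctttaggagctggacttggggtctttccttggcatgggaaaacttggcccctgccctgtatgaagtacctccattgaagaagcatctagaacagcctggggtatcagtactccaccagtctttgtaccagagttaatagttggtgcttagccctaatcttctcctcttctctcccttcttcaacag
Nrxn3 entry 2: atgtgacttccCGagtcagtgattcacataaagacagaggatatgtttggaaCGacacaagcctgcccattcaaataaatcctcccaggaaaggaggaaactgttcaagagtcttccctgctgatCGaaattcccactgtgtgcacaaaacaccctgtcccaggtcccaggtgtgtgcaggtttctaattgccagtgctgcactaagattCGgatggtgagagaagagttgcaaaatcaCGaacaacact
Nrxn3 entry 3: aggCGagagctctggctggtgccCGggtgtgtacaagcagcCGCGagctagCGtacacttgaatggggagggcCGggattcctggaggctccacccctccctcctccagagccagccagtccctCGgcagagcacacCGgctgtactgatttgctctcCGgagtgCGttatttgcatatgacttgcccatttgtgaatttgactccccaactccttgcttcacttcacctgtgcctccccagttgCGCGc
Neither CAGCTG, the E-box letters bound by neural basic helix-loop-helix factors, nor CACGTG, the E-box of Myc, occurs on either strand in these 4 entries, read over 300 bases including the first 50 of the transcript. CAGCTG occurs in 16.3% and CACGTG in 7.15% of all entries of that length. Both motifs read the same on both strands and do not overlap each other in letters, and their absence here says only that the letters are not in these windows. The data carry no measure of methylation or binding, so the sequences stand as context for the levels that follow.

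All 8 genes were detected in tumour cells of all 4 libraries. At least 1 of the 8 had a UMI in 80.3% of tumour cells of RPR2 (78.8 to 81.7), 62.5% of CRPR2 (61.3 to 63.7), 91.0% of preSC_WT (90.5 to 91.5) and 90.8% of the library labelled preSC_CracdKO. B-cell-like cells, which should lack these genes, gave 1.02% and 1.31% in the lung libraries (RPR2 first) and 6.93% and 2.02% in the allografts (preSC_WT first), at median depths of 2295, 1371, 858 and 779 UMIs. After every cell with at least 1000 UMIs was thinned to 1000, and shallower cells were left out, the tumour shares were 32.1%, 27.7%, 57.1% and 53.4%. The thinned B-cell-like shares were 0.259%, 0.581% and 12.9%, and 0 of 20 cells in the last library, which allows up to 16.8%. Thinning left out 750 of 1083 B-cell-like cells of preSC_WT and 79 of 99 of the last library. The thinned shares of these 2 libraries thus rest on the deeper B-cell-like cells. Detection of the set in tumour cells therefore stood above the B-cell-like share, or the bound on it, in each library.

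**Figure D1:**
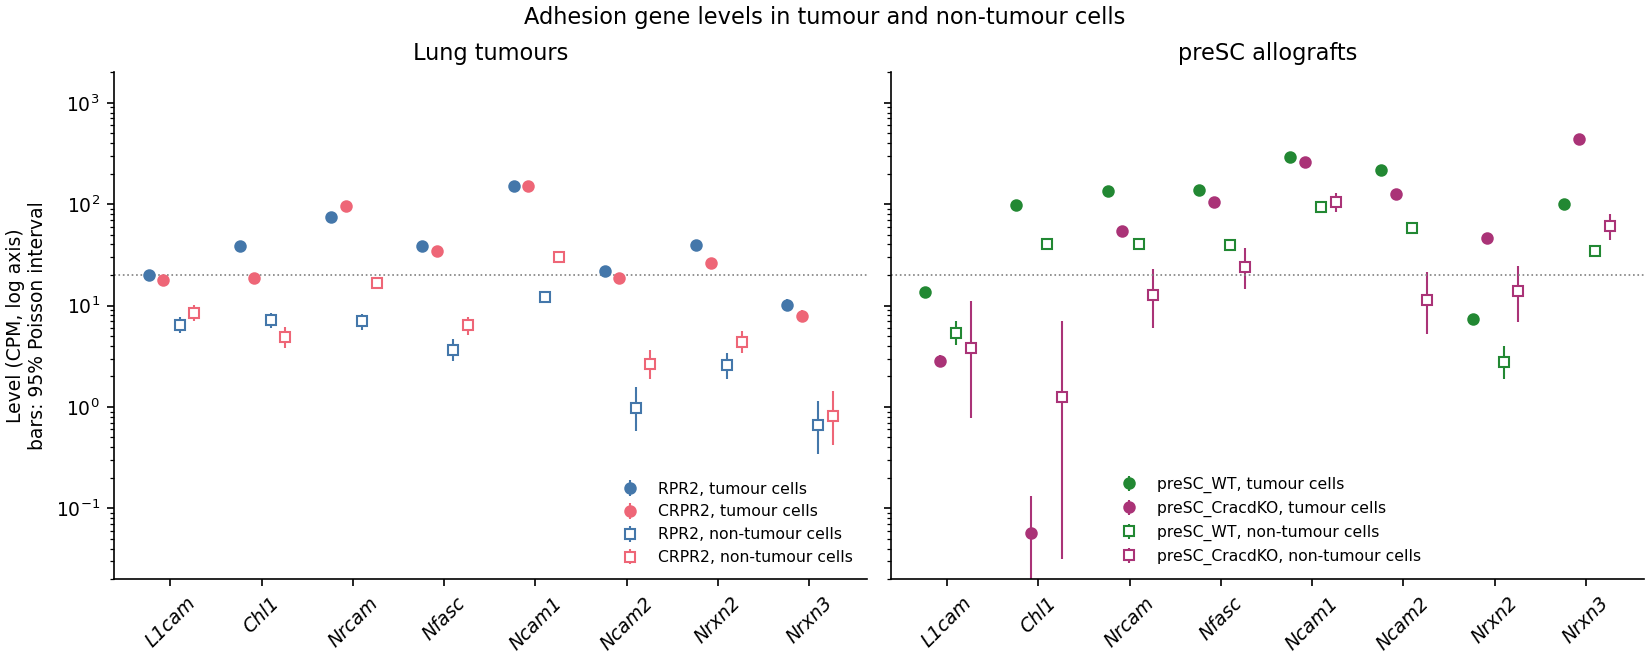
Level (CPM, log axis) of each of the 8 genes in tumour cells and in named non-tumour cells of the 4 libraries. Bars are 95% Poisson intervals of the summed UMIs, cut at the lower edge of the axis, and the dotted line marks 20 CPM. Filled tumour points lie above the non-tumour points in the lung tumours, and Chl1 lies at 0.0572 CPM in tumour cells of the library labelled preSC_CracdKO.

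Between the lung tumours the adhesion genes were close to one another, with Chl1 as the one gene past a 2-fold difference. A gene was counted as different where the ratio of its levels was 2 or more and the higher library had at least 20 CPM. Of the 8 genes, 6 reached 20 CPM (all but L1cam and Nrxn3), 1 of them was lower in CRPR2 and none was higher. Over all 7204 genes that reached 20 CPM, 1.22% were different by this rule, 0.597% higher and 0.625% lower. The median log2 ratio of CRPR2 over RPR2, with 1 CPM added, was −0.20 over the 8 genes and −0.03 over all genes at 5 CPM or more. The tumour class leaves out the unnamed cluster 13, which holds 1 cell of RPR2 and 497 of CRPR2. How the lung ratios, that of Nrcam included, would change with this cluster counted as tumour was not tested. Xist, the RNA of the inactive X, stood at 1574 CPM in tumour cells of RPR2 and 0.225 CPM in those of CRPR2, and the Y-linked Ddx3y at 0 and 53.7 CPM. The lung libraries thus also differed in sex-linked transcripts, a difference that cannot be told apart from the labels in any lung ratio, that of Chl1 included.

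Between the allografts some of the same genes were far apart, in both directions, while Nfasc, Ncam1 and Ncam2 stayed within 2-fold. Of the 8 genes, 7 reached 20 CPM, of which Nrxn2 and Nrxn3 were at least 2-fold higher and Chl1 and Nrcam at least 2-fold lower in the library labelled preSC_CracdKO. Over all 8145 genes at that level, 22.1% were different, with 7.21% higher and 14.9% lower. The count of 4 among 7 is to be read against that background, in which large differences were common. The median log2 ratio was −0.58 over the 8 genes and −0.14 over all genes.

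**Figure D2:**
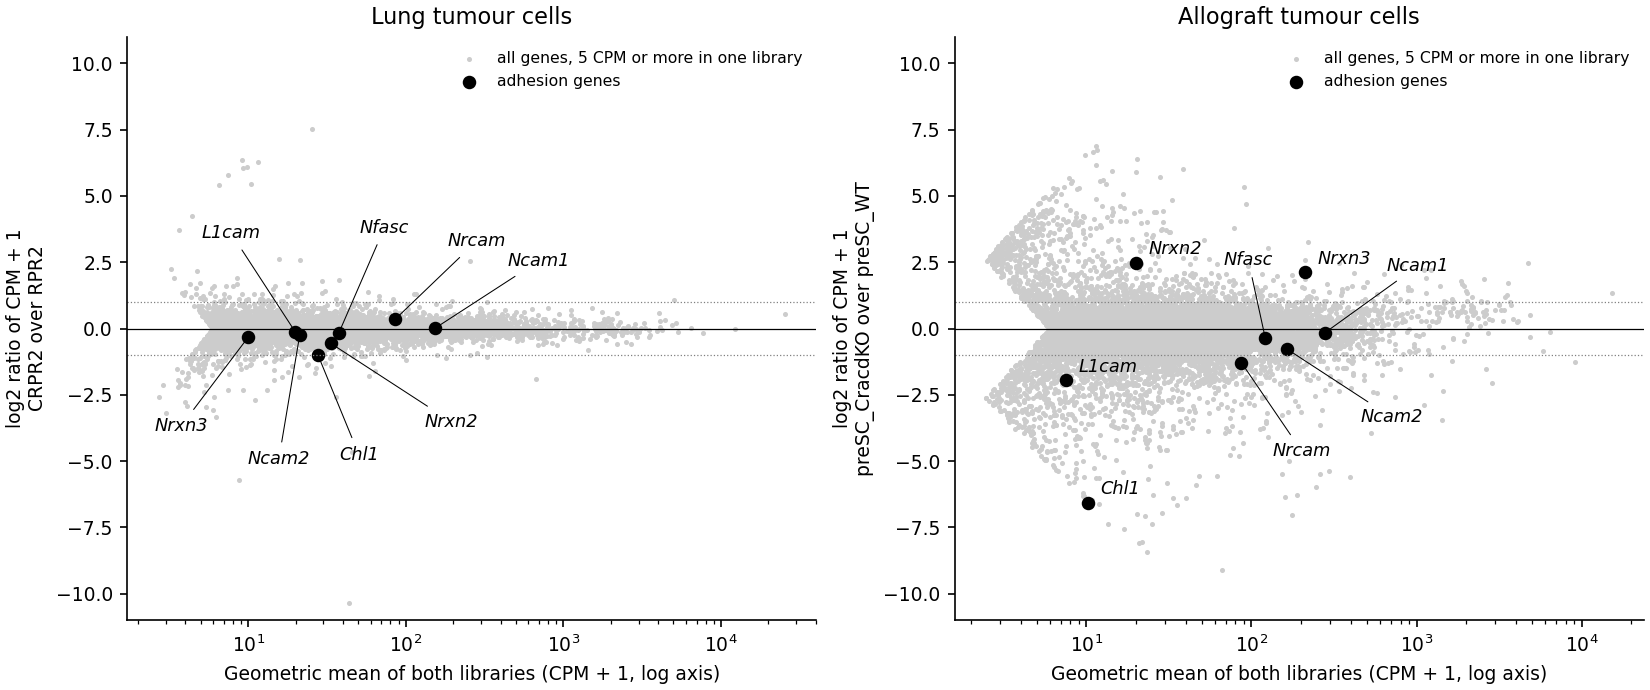
Log2 ratio of the levels of tumour cells (CPM + 1) against the geometric mean of both libraries (log axis), for CRPR2 over RPR2 and for the library labelled preSC_CracdKO over preSC_WT. Grey points are all genes at 5 CPM or more in the higher library, black points the 8 adhesion genes, and dotted lines mark 2-fold. The 8 genes lie between −1.02 and 0.35 in the lung tumours and between −6.56 and 2.49 in the allografts.

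Chl1 encodes the close homolog of L1, a neurite-promoting adhesion protein that acts with integrins and neuropilin. It measured 38.6 CPM in RPR2 (36.0 to 41.2, 862 UMIs) and 18.6 CPM in CRPR2 (16.97 to 20.3, 496 UMIs), a 2.08-fold lower level in CRPR2 (1.86 to 2.33). The share of tumour cells with a Chl1 UMI was 17.3% in RPR2 and 5.68% in CRPR2, and 3.67% and 1.68% after thinning to 1000 UMIs. No B-cell-like cell had a Chl1 UMI among 393 of RPR2 or 761 of CRPR2, which allows shares of up to 0.934% and 0.484%. The value sits just inside the 2-fold rule and left it, at a ratio of 0.505, when tumour cluster 8 was left out, whereas Nrxn2, at a 1.49-fold lower level, lies outside it.

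In the allografts Chl1 measured 98.8 CPM in preSC_WT (7776 UMIs, 34.0% of tumour cells) and 0.0572 CPM in the library labelled preSC_CracdKO. The latter value rests on 5 UMIs in 4 of 13529 tumour cells, against a class total of 87361300 UMIs. The level was 1725.5-fold lower, with a counting interval from 739 to 5316. Chl1 was thus all but undetected in tumour cells of that library while 5.68% or more of the tumour cells of each other library held it. At this depth a level of 0.0572 CPM cannot be told apart from transcripts carried over between cells.

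Chl1 also varied between tumour clusters of a library. In RPR2 it ranged from 27.7 CPM in tumour cluster 6 to 58.3 CPM (50.8 to 66.7) in cluster 8, which was led by the mitotic genes Cenpf, Ube2c and Prc1. In CRPR2 it ranged from 6.27 CPM in cluster 17, which had 58 cells and 2 Chl1 UMIs, to 29.3 CPM (22.8 to 37.1) in the same cluster 8. The mitotic cluster was thus the highest in both lung libraries. In preSC_WT the highest level was again in a cluster led by Cenpf, Hmmr and Ube2c, number 5, with 152 CPM (146 to 158) and a Chl1 UMI in 64.8% of 1913 cells. The cells of these clusters were also the deepest of the tumour clusters in RPR2 and preSC_WT, with medians of 9202 and 8150 UMIs, against 4569 in CRPR2. The part of depth in these levels was not tested. Cluster 5 held 14.9% of the tumour cells of preSC_WT and 36.8% of their Chl1 UMIs.

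Chl1 was lower in CRPR2 than in RPR2 in 8 of the 8 lung tumour clusters with at least 50 cells of each library. The clusters share the library they come from, so this shows that the difference was not confined to 1 cluster and is no replicate of it. In the library labelled preSC_CracdKO, the 7 clusters of 50 or more cells ranged from 0 to 0.133 CPM. The 4 allograft clusters shared by both libraries held 52 to 94 cells of preSC_WT, and in all 4 Chl1 was higher there, at 10.8 to 57.1 CPM.

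**Figure D3:**
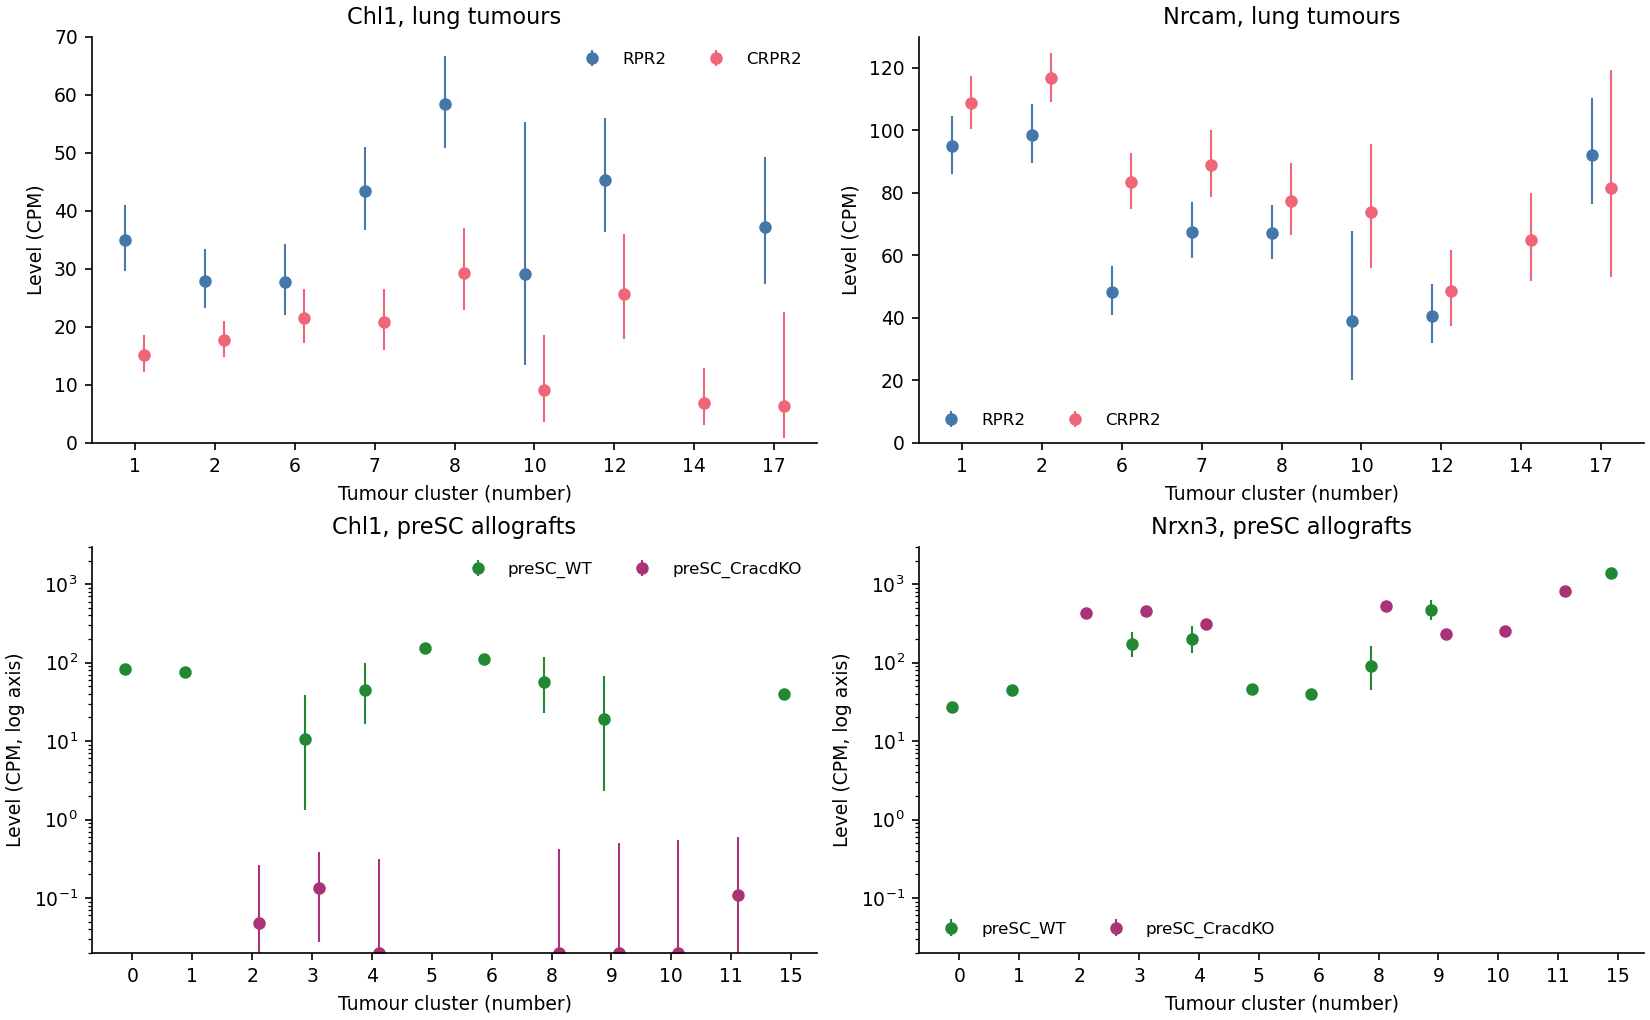
Level (CPM, with 95% Poisson intervals) of Chl1 and Nrcam across the lung tumour clusters and of Chl1 and Nrxn3 across the allograft tumour clusters (log axis), for clusters with at least 50 cells in a library. Clusters with 0 UMIs are drawn on the lower edge of the axis. Chl1 of CRPR2 lies under RPR2 in all 8 shared clusters, and Nrxn3 of preSC_WT reaches 1393 CPM in cluster 15.

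L1cam encodes the founding member of the family, an axon-growth protein that carcinomas can also express. It was below 20 CPM in tumour cells of every library, with 19.9 CPM in RPR2 and 18.0 CPM in CRPR2, and 13.7 CPM in preSC_WT against 2.84 CPM in the library labelled preSC_CracdKO. The lung levels had a ratio of 0.908 (0.797 to 1.04), an interval that includes equality. In the allografts L1cam was 4.84-fold lower (4.21 to 5.57) in the library labelled preSC_CracdKO, but it did not reach 20 CPM and is not counted among the genes apart. L1cam is X-linked, and the allografts had Xist at 0.241 and 2.48 CPM and Ddx3y at 4.28 and 2.15 CPM (preSC_WT first). The part of the sex-linked difference in the L1cam levels was not tested.

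Across tumour clusters L1cam was highest in the lung cluster 12, led by Cenpf and Cdc20, in both libraries, at 32.7 CPM (25.1 to 41.9) in RPR2 and 30.3 CPM (21.6 to 41.2) in CRPR2. In the library labelled preSC_CracdKO its clusters lay between 2.12 and 5.27 CPM. The low level was thus seen in all 7 clusters of that library.

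Nrcam encodes the neuronal adhesion protein that gathers sodium channels at nodes of Ranvier together with neurofascin. It was at 74.9 CPM in RPR2 (71.4 to 78.6) and 95.6 CPM in CRPR2 (91.9 to 99.3), and had the highest ratio of CRPR2 over RPR2 among the 8, 1.28 (1.20 to 1.36). Its level was higher in CRPR2 in 7 of the 8 clusters held by both libraries, with cluster 17 as the exception at 92.2 CPM in RPR2 and 81.5 in CRPR2. Cluster 2, led by Klk1 and Rgs4, had the highest level in both, 98.6 and 117 CPM. The difference ran the same way in most clusters and stayed below 2-fold.

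In the allografts Nrcam ran the other way, with 135 CPM in preSC_WT and 54.7 CPM in the library labelled preSC_CracdKO, a 2.46-fold lower level (2.38 to 2.54). The share of tumour cells with an Nrcam UMI was 46.4% and 25.1%, and 12% and 4.89% after thinning. This direction rests on clusters that each belong almost wholly to 1 library. In the 4 small groups of preSC_WT cells that clustered with the other library, Nrcam was lower than there in 3, with 0 to 40.8 CPM against 31.9 to 64.9. Weighting these 4 clusters equally gave a ratio of 1.96 in place of 0.407. That ratio carries no interval and rests on 4, 0, 5 and 4 Nrcam UMIs of preSC_WT, in clusters 3, 4, 8 and 9.

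Nfasc encodes neurofascin, the ankyrin-bound protein of nodes and of the axon initial segment. Its levels were 38.8 CPM in RPR2 and 34.7 CPM in CRPR2, and 137 CPM in preSC_WT against 106 CPM in the library labelled preSC_CracdKO. The ratios were 0.894 (0.814 to 0.982) in the lung tumours and 0.774 (0.752 to 0.796) in the allografts, both under 2-fold. In the 4 allograft clusters held by both libraries Nfasc was higher in the library labelled preSC_CracdKO in 3. Weighting them equally gave a ratio of 1.14, on 12, 10, 13 and 9 Nfasc UMIs of preSC_WT. Its range over the clusters of the library labelled preSC_CracdKO, 81.4 to 144 CPM, was narrow. Neurofascin transcripts thus differed between the libraries of each pair by less than they differed between clusters of 1 library.

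Ncam1 was at 152 CPM in both RPR2 (146 to 157) and CRPR2 (147 to 157), with a ratio of 1.00 (0.958 to 1.05). In the allografts it was at 293 CPM and 260.1 CPM, a ratio of 0.889 (0.872 to 0.905). An Ncam1 UMI was found in 54.8% of tumour cells of RPR2, 38.5% of CRPR2, 66.9% of preSC_WT and 67.3% of the library labelled preSC_CracdKO. The median depths of these cells were 6059, 3368, 4880 and 5855 UMIs in the same order. In these sums Ncam1 had the ratio closest to 1 of the 8 genes in both pairs. That order did not hold throughout: after thinning to 1000 UMIs its lung ratio was 0.836 and that of Nrxn3 0.881, and with shared clusters weighted equally L1cam was closer in the lung tumours (0.983) and Nfasc in the allografts (1.14). Over clusters it ranged from 51.9 to 192 CPM in RPR2 and from 91.8 to 188 CPM in CRPR2, with the low end in cluster 10 of both, whose cells were shallow at medians of 1501.5 and 1137.5 UMIs.

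Ncam2 was at 22.2 CPM in RPR2 and 18.5 CPM in CRPR2, with a ratio of 0.835 (0.735 to 0.948). In the allografts it was at 216 CPM (213 to 219) and 125 CPM (123 to 127), a 1.73-fold lower level in the library labelled preSC_CracdKO. As for Nrcam, this direction rests on clusters that belong almost wholly to 1 library. Ncam2 was higher in the library labelled preSC_CracdKO in all 4 clusters held by both, and weighting these equally gave a ratio of 1.83. The preSC_WT side of that ratio rests on 4, 9, 10 and 5 Ncam2 UMIs. Within that library it ranged 3.04-fold, from 60.7 CPM in cluster 10 to 184 CPM in cluster 11. Ncam2 thus stayed short of 2-fold in both pairs while varying by more than that between clusters of a single library.

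Nrxn2 was at 39.5 CPM in RPR2 (36.9 to 42.2) and 26.5 CPM in CRPR2 (24.6 to 28.6), a 1.49-fold lower level (1.35 to 1.65). It was lower in CRPR2 in 7 of the 8 shared clusters, all but cluster 17. In the allografts it was at 7.39 CPM in preSC_WT (582 UMIs) and 46.1 CPM in the library labelled preSC_CracdKO (4029 UMIs), a ratio of 6.24 (5.72 to 6.82). It was higher in the latter in all 4 clusters held by both, which gave a ratio of 2.93 when weighted equally. That ratio carries no interval and rests on 5, 0, 1 and 2 Nrxn2 UMIs of preSC_WT, in clusters 3, 4, 8 and 9. The share of tumour cells with an Nrxn2 UMI was 4.06% and 24%, and 0.763% and 4.39% after thinning. All 7 clusters of the library labelled preSC_CracdKO lay between 33.9 and 59.0 CPM. The 4 large preSC_WT clusters 0, 1, 5 and 6 lay between 4.28 and 8.503 CPM, outside that range. Cluster 15 of preSC_WT, with 536 cells, lay inside it at 39.3 CPM.

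Nrxn3 was the least detected of the set in lung tumours. A UMI of it was found in 6.32% of tumour cells of RPR2 and 2.85% of CRPR2, at median depths of 6059 and 3368 UMIs. Its levels there were 10.2 CPM (8.92 to 11.6) and 7.94 CPM (6.90 to 9.08), under the 20 CPM minimum. The ratio was 0.778 (0.642 to 0.942), and 0.881 after thinning to 1000 UMIs. In the allografts it was at 99.5 CPM in preSC_WT and 440.2 CPM in the library labelled preSC_CracdKO, a ratio of 4.42 (4.32 to 4.53). An Nrxn3 UMI was found in 16.2% and 57.7% of tumour cells, and in 5.62% and 25.2% after thinning.

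Most of the Nrxn3 of preSC_WT came from 1 small cluster. Cluster 15, led by Gm34237, Igfbpl1 and Nrxn3 itself, held 536 cells, 4.19% of the tumour cells of preSC_WT, and 62.8% of their Nrxn3 UMIs. It measured 1393 CPM (1354 to 1432), with Nrxn3 in 81.9% of its cells, above every cluster of the library labelled preSC_CracdKO, which ran from 229.7 to 825 CPM. The 4 large preSC_WT clusters 0, 1, 5 and 6 measured 27.2 to 45.7 CPM. Without cluster 15 the ratio between the allografts was 11.4 rather than 4.42. With the 4 clusters held by both libraries weighted equally it was 1.61, short of 2-fold, and Nrxn3 was higher in the library labelled preSC_CracdKO in 3 of them.

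The other genes set cluster 15 apart in both directions. Nrxn2 was at 39.3 CPM (33.1 to 46.4) there, against at most 8.503 CPM in the large clusters, and the cluster held 23.9% of all Nrxn2 UMIs of preSC_WT tumour cells. Ncam1 was at 595 CPM (570.1 to 621), against 213 to 337 CPM in the large clusters. Chl1, by contrast, was at 39.6 CPM, below the 76.3 to 152 CPM of the large clusters, and Ncam2 was at 87.7 CPM, below their 199 to 254 CPM. The Nrxn2 and Ncam2 levels of cluster 15 lay within the range of the clusters of the other library, 33.9 to 59.0 and 60.7 to 184 CPM. Its Ncam1, Nrxn3 and Chl1 levels lay above the ranges there, 176 to 317, 229.7 to 825 and 0 to 0.133 CPM. Chl1 was measured in 18.1% of the cells of cluster 15. Because the clusters were made from all other genes of the same cells, these contrasts are descriptions and carry no test.

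Outside the tumour cells the genes that reached 20 CPM in either class were lower in each library. The ratios that follow include genes under that minimum for the first 3 libraries. In RPR2 the ratios of tumour over named non-tumour cells (5813 cells) ran from 3.10 for L1cam to 22.5 for Ncam2, and 6 genes were at least 2-fold higher with 20 CPM, against 28% of all genes. In CRPR2 the ratios ran from 2.15 to 9.67 and 4 genes were counted (Nrcam, Nfasc, Ncam1 and Nrxn2), against 30.1% of all genes. In preSC_WT they ran from 2.45 to 3.70 with 6 genes counted, against 21.2%. In the library labelled preSC_CracdKO, with 327 non-tumour cells, 6 genes were counted at ratios from 2.49 to 11, against 21.8%, and L1cam and Chl1 were under the minimum, at 2.84 and 0.0572 CPM in tumour cells beside 3.78 and 1.26 CPM in non-tumour cells (3 UMIs and 1 UMI). No gene of the set was counted as lower in tumour cells of any library, against 11.1%, 10.7%, 17.2% and 22.3% of all genes. The counts depended on how tumour cells were chosen: with a choice by markers in each cell they were 5, 0, 5 and 0 in the order RPR2, CRPR2, preSC_WT and the library labelled preSC_CracdKO, and at Leiden resolution 0.5 the last was 2. The choice by markers left cells of tumour clusters among the non-tumour cells. Resolution 0.5 added to the non-tumour cells a cluster with 153 cells of the last library, led by Gm30835 and Alas2.

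Tumour transcripts were also found in cells of other classes, and their amount moved with these ratios. The summed 25 tumour markers stood in non-tumour cells at 7.21%, 13.1%, 24.3% and 21.0% of their level in tumour cells of RPR2, CRPR2, preSC_WT and the library labelled preSC_CracdKO. The summed 8 adhesion genes stood at 10.3%, 20.0%, 31.5% and 22.4%. B-cell-like cells showed 1.22% of the tumour level of the adhesion genes beside 1.14% of that of the markers in RPR2, 3.48% beside 3.04% in CRPR2, 33.7% beside 25.4% in preSC_WT and 2.25% beside 2.03% in the library labelled preSC_CracdKO. In preSC_WT, 26 of 1083 B-cell-like cells had UMIs of 4 or more of the 8 genes, and these cells had a median depth of 8806.5 UMIs against 858 for the class. Non-tumour levels that keep pace with the tumour markers, as in B-cell-like and club-like cells, cannot be told apart from tumour RNA or mixed droplets.

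**Figure D4:**
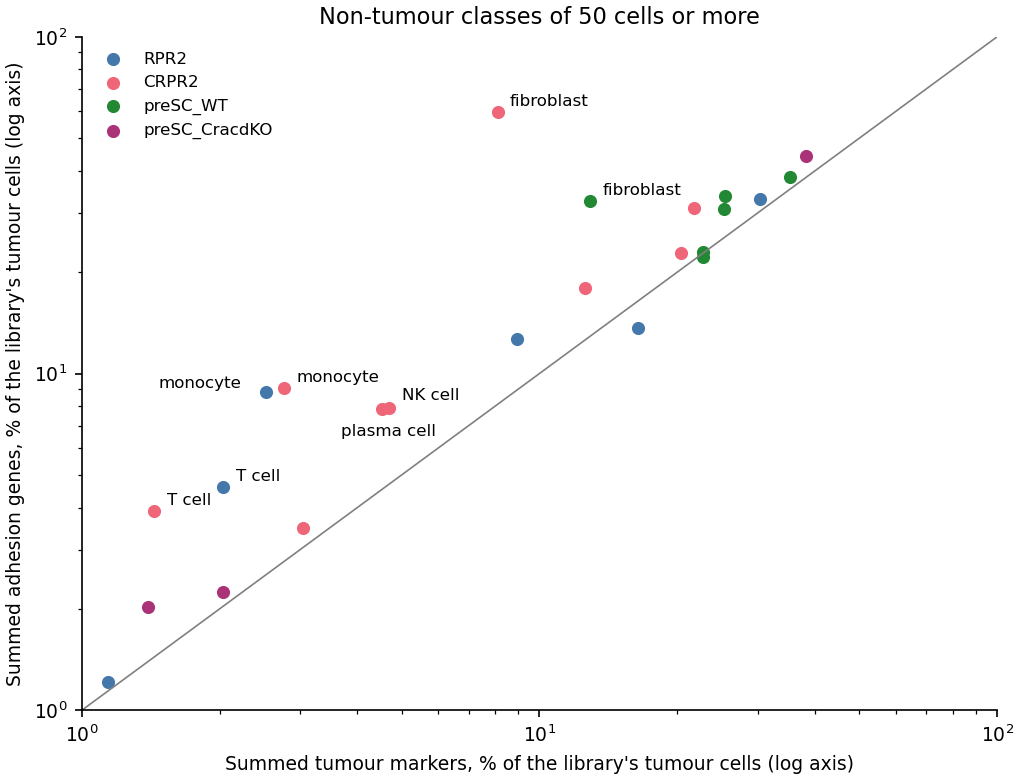
Summed level of the 8 adhesion genes against the summed level of 25 tumour markers in each non-tumour class of 50 cells or more, both as a percentage of the level in tumour cells of the same library (log axes). The line marks equal percentages, and classes more than 1.5 times above it are named. Fibroblast-like cells of CRPR2 lie at 59.7% against 8.10%.

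Some stromal and immune classes held more of the adhesion genes than their tumour markers would match. Fibroblast-like cells of CRPR2 (137 cells) had 59.7% of the tumour level of the summed adhesion genes beside 8.10% for the markers. This came from Ncam1, at 127 CPM (108 to 149), and Nrcam, at 60.6 CPM (47.3 to 76.4). In preSC_WT fibroblast-like cells (465 cells) the percentages were 32.5% and 12.9%, with Chl1 at 93.3 CPM (80.4 to 108), close to the 98.8 CPM of the tumour cells. B-cell-like cells of that library had 27.5 CPM of Chl1. Chl1 had a UMI in 17.4% of the fibroblast-like cells and 2.22% of the B-cell-like cells, at median depths of 3897 and 858 UMIs, and in 6.90% and 1.502% after thinning. Ncam1, at 118 CPM, was nearer to its B-cell-like level of 88.6 CPM. The 45 fibroblast-like cells of RPR2 had Nrcam at 82.5 CPM (54.9 to 119, 28 UMIs) but Ncam1 at 17.7 CPM (6.49 to 38.5, 6 UMIs). Fibroblast-like cells thus carried Nrcam in both lung tumours, Ncam1 at a high level in CRPR2 and Chl1 in preSC_WT, beyond the level of B-cell-like cells.

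Among immune cells, L1cam was measured in monocyte-like cells and in some T-cell-like cells. Monocyte-like cells had 30.9 CPM of L1cam in RPR2 (19.8 to 46.0, 24 UMIs in 172 cells) and 14.2 CPM in CRPR2 (6.11 to 27.9, 8 UMIs in 155 cells), where B-cell-like cells had 1.92 and 1.73 CPM on 2 UMIs each. A UMI of L1cam was found in 10.5% of monocyte-like cells of RPR2 and 4.52% of CRPR2, at median depths of 4657.5 and 3546 UMIs. In RPR2 the monocyte-like level was above the 19.9 CPM of the tumour cells, but the 2 intervals overlap. T-cell-like cluster 3 had 15.9 CPM of L1cam in RPR2 (10.6 to 22.8) and 11.8 CPM in CRPR2 (7.32 to 18.1).

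Chl1 also marked a T-cell-like cluster of RPR2. Cluster 9, 728 cells led by genes that include Lef1 and Ccr7, had 40.2 CPM of Chl1 (31.0 to 51.3), from 65 UMIs in 48 cells, 6.59% of the cluster. The 4 other T-cell-like clusters of RPR2 had at most 1.64 CPM. The level was as high as in the tumour cells of that library, 38.6 CPM. Only 7 cells of this cluster came from CRPR2, too few for a comparison.

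The position of each gene in the order of classes can be read per gene. For Nrcam, Nfasc, Ncam1, Ncam2, Nrxn2 and Nrxn3 the tumour class was the highest of all classes with 50 or more cells in every library in which they were compared. Chl1 shared the top with fibroblast-like cells in preSC_WT, whose intervals, 80.4 to 108 and 96.6 to 101 CPM, overlap. L1cam had monocyte-like cells at the top in RPR2 and tumour cells in CRPR2, where monocyte-like cells followed and the intervals again overlap. In the library labelled preSC_CracdKO the order for L1cam cannot be read, since all its non-tumour cells together held 3 UMIs.

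The genes most like each member were taken as the 3 with the highest Pearson correlation of log2(CPM + 1) over 57 units, each a named class or a tumour cluster with 50 or more cells in a library, among 11184 genes. Units of 1 library share depth and preparation, so the correlations are descriptions. The units pool lung and allograft libraries, whose levels differ with gene length, so r was also taken within the 32 lung and the 25 allograft units. Ncam2 ran closest to Nlgn1, a neurexin ligand (r = 0.952), Fgf12 and Tanc2. Nfasc ran with Fgf14 (0.961) and Sybu, Ncam1 with Tead1 (0.952), Khdrbs3 and Map1b, and Nrcam with Unc80 (0.9498), Pclo and Fzd3. Nrxn3 ran with Prelid3a (0.932), Nkain3 and Xkr4, Nrxn2 with Fam57b (0.860), Epb41l4a and Tox3, Chl1 with Krtap17-1 (0.901), Frk and Hoxb7, and L1cam with Stx3 (0.734), Ffar2 and Atf3. Within the models the first-named gene of each member had r of 0.918 and 0.907 for Ncam2 (lung first), 0.928 and 0.974 for Nfasc, 0.943 and 0.951 for Ncam1 and 0.951 and 0.949 for Nrcam. The values were 0.808 and 0.860 for Nrxn3, 0.921 and 0.834 for Nrxn2, 0.801 and 0.964 for Chl1, and 0.631 and 0.734 for L1cam.

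Among themselves the genes were alike to different degrees in the lung and allograft units. These units hold both tumour clusters and non-tumour classes, between which the levels differ. Correlations among tumour clusters alone were not taken, so r is not a measure of likeness within tumour cells. Pooled over all units, Nfasc had r of 0.891 with Ncam1 and 0.875 with Ncam2. All 3 genes were higher in the allografts than in the lung tumours, and the part of that shift in the pooled values was not tested. Within the lung units these were 0.821 and 0.842, and within the allograft units 0.967 and 0.858. Chl1 and Nrxn3 had 0.0587 over all units, but 0.787 within the lung units and −0.28 within the allograft units. L1cam and Nrxn3 had −0.16 over all units, 0.613 within the lung units and −0.07 within the allograft units. Chl1 and L1cam, both low in the library labelled preSC_CracdKO, had 0.442, 0.457 and 0.502 in the same order.

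No gene was called different between the lung tumours and the allografts, because their levels differed with the length of genome a gene spans. Over genes under 10 kb the median log2 ratio of preSC_WT over RPR2 tumour cells was −0.21, and over genes of 500 kb or more it was 2.72. The library labelled preSC_CracdKO over CRPR2 gave −0.34 and 2.67. Within a pair the medians of the 5 length bins stayed between −0.04 and 0.13 in the lung tumours and between −0.21 and −0.09 in the allografts. Nrxn3, the longest of the set at 1612 kb, had log2 ratios of 3.17 and 5.63 across the models, and Ncam2, at 426 kb, 3.23 and 2.69. The matrices of the lung tumours and of the allografts were written by different versions of Cell Ranger, and whether intronic reads were counted in either is not given in the sources used here.

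**Figure D5:**
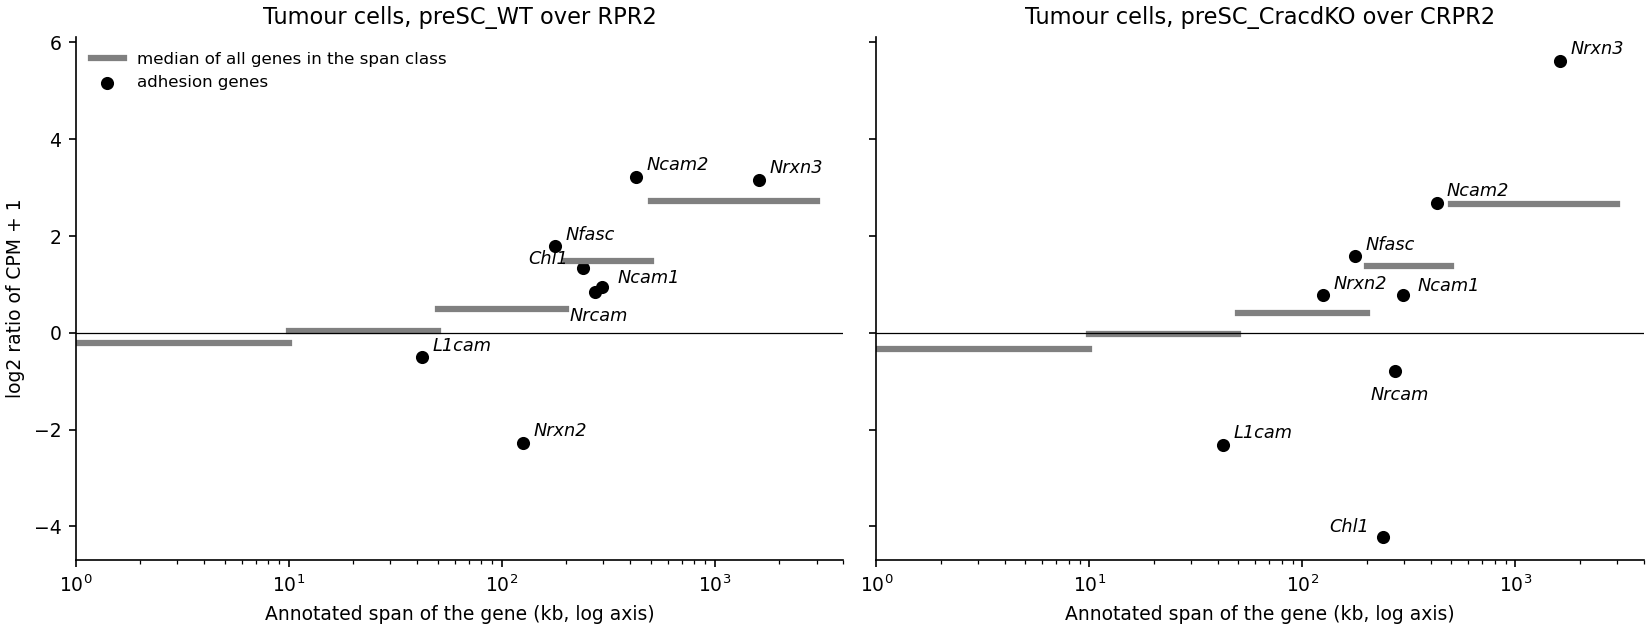
Log2 ratio of tumour-cell levels of an allograft over a lung tumour (CPM + 1) against the length of genome a gene spans (kb, log axis). Lines give the median of all genes in 5 length bins and points the 8 adhesion genes, for preSC_WT over RPR2 and the library labelled preSC_CracdKO over CRPR2. The median goes from −0.21 to 2.72 and from −0.34 to 2.67.

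Other genes of the adhesion pathway were read from 9 lists with 123 genes. In the lung tumours none of the listed genes at 20 CPM or more was 2-fold apart in either direction, in any of the 9 lists, against 1.22% of all genes, and the list medians lay between −0.17 and 0.21 on the log2 scale. The widest ratios were those of Syt4, a synaptotagmin (18.6 and 30.2 CPM, 1.62), Clstn2, a calsyntenin (30.9 and 49.0 CPM, 1.59), and the protocadherin Pcdh7 (26.4 and 16.5 CPM, 0.624). Chl1 was thus the one gene of the 8 and of these lists past 2-fold in the lung tumours.

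In the allografts the partners of the L1 family and the contactins were mostly lower in the library labelled preSC_CracdKO, 5 of the 7 genes at 20 CPM, with 1 higher, against 14.9% lower and 7.21% higher over all genes. Contactins are GPI-anchored adhesion proteins that bind L1 proteins on the same membrane. Cntn3 was at 773 and 91.9 CPM (8.41-fold lower), Cntn5 at 93.1 and 5.15 CPM (18.1-fold lower) and Cntnap2, a contactin-associated protein, at 591 and 66.3 CPM (8.92-fold lower). Itgb1, the beta integrin that L1 proteins bind, was at 205 and 68.3 CPM. Cntn1 ran the other way, from 0.495 to 36.7 CPM (74.0-fold, 54.0 to 104).

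In the list of neurexin ligands and related genes, 1 of 11 was higher and 3 were lower, beside 7.21% and 14.9% of all genes, a share of lower genes not far from that background. Clstn2 was 9.38-fold lower in the library labelled preSC_CracdKO (377 and 40.2 CPM), and Nlgn1, a neuroligin, 1.97-fold lower (501 and 255 CPM), just outside the rule. The latrophilin Adgrl3 was higher, at 31.6 and 123 CPM. Of the proteins that bind neurexins inside the cell, 1 of 8 was higher and 2 were lower: the adaptor Apba2 was at 10.3 and 50.8 CPM, Lin7a at 134 and 33.8 CPM and Sdcbp, or syntenin, at 112 and 36.6 CPM.

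The cytoskeletal linkers of L1 proteins and NCAM had 3 of 10 higher and 1 lower, beside 7.21% and 14.9% of all genes. Ank2, an ankyrin, was at 3.58 CPM in preSC_WT and 97.8 CPM in the library labelled preSC_CracdKO (27.3-fold, 24.2 to 30.8), and Dcx, doublecortin, which binds neurofascin, at 4.86 and 59.3 CPM. Of the genes of NCAM signalling and polysialylation, 1 of 10 was higher and 4 were lower. St8sia2, a polysialyltransferase of NCAM, was at 4.31 and 29.8 CPM, whereas Gfra1, the GDNF co-receptor that binds NCAM, was at 49.7 and 4.84 CPM and Prnp at 121 and 53.5 CPM. Ank2, Dcx and St8sia2 were thus higher beside an Ncam1 level that differed little.

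The lists that follow are to be read beside the 7.21% of all genes that were higher and the 14.9% that were lower. Of the shedding proteases, none of 5 was higher and Ncstn, a gamma-secretase subunit, was lower, at 35 and 12 CPM. Of the splicing factors of neurexins, 1 of 10 was higher and none lower: Khdrbs2, or SLM1, was at 0.178 CPM on 14 UMIs and 24.1 CPM, a ratio of 136 (80.7 to 248.8). Other neural immunoglobulin adhesion genes had 2 of 15 higher and 8 lower, with Negr1 at 5.21 and 134 CPM and Dscaml1 at 83.7 and 11.4 CPM. Cadherins and related genes had 1 of 7 higher and 4 lower. Cdh1, E-cadherin, was at 319 and 0.927 CPM (344-fold lower, 277 to 433), Epcam at 1728 and 37.7 CPM, Pcdh7 at 1016 and 21.8 CPM and Pcdh9 at 329 and 21.1 CPM. A level near 0 in that library was thus measured for Cdh1 as for Chl1. The list medians of log2 ratios ran from −2.31 for the cadherins to 0.18 for the splicing factors beside −0.14 over all genes.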

How the data were processed

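The deposited matrices hold raw UMI counts, whole numbers for each gene in each barcode, which the authors had not normalized. Per the file headers, Cell Ranger 6.1.2 wrote the lung matrices and Cell Ranger 5.0.0 the allograft matrices, whereas for all of them the submitters' processing notes list mm10, Scanpy 1.8.2, Cell Ranger 6.1.2 and Seurat, the latter under the version 1.8.2. Lung matrices had 32285 features and allograft matrices 31053. How intronic reads were treated is not given in the sources used here.

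Cells needed 300 or more genes and no more than 15% mitochondrial UMIs. Scrublet calls removed 259 cells of RPR2 (2.84%) and 357 of preSC_WT (1.93%) at its automatic threshold. That threshold marked under 0.5% in the other libraries, where the top scores were dropped instead, at a rate of 0.8% for each 1000 barcodes, 1164 cells of CRPR2 (9.73%) and 2102 (13.0%) of the library labelled preSC_CracdKO. The libraries of a pair were clustered together without integration (2000 variable genes, 50 components, 15 neighbours, Leiden resolution 1.0, seed 1), giving 25 clusters in each pair. Clusters were named from marker lists by a score adjusted after the clusters were seen, and the unnamed ones held 1, 497, 914 and 179 cells of RPR2, CRPR2, preSC_WT and the library labelled preSC_CracdKO. Raw counts were summed per class and library. Levels carry exact Poisson, ratios exact conditional binomial and shares exact Clopper-Pearson intervals. UMIs of a cell are not separate samples, and with 1 library per group no test was run across libraries.

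All 8 members are named. Of each list, the 3 genes with the highest level and the 2 with the widest ratio at 20 CPM in a pair could be named, and for likeness the 3 highest correlations. Some genes that these rules pick are not reported here. The members, lists and rules were chosen with earlier results of these data known. Alternatives covered doublets, cell filter, scaling, cell weights, thinning, resolution, choice of tumour cells, thresholds and clusters. Leaving out tumour cells that clustered with the other library, and taking correlations within each model, were chosen after seeing the data. The script was tested on simulated counts. Promoter entries from RefSeq matched 6 of the 8 genes, all but Ncam1 and Nrxn2. Clustering used scanpy 1.11.5 with leidenalg 0.10.2, igraph 0.11.9 and anndata 0.12.19. Sums and intervals used Python 3.11.15 with scipy 1.17.1, numpy 2.4.6 and pandas 2.3.3, figures matplotlib 3.10.9, and TMM factors edgeR 4.0.16 in R 4.3.3.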

Additional observations from a re-analysis of the deposited data

Results flagged for a closer look

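Of the 8 genes, 3 had ratios on opposite sides of 1 in the lung and allograft pairs with counting intervals that leave out 1 in both. The tumour-cell ratio of Nrcam was 1.28 for CRPR2 over RPR2 and 0.407 for the library labelled preSC_CracdKO over preSC_WT. That of Nrxn2 was 0.672 and 6.24, and that of Nrxn3 was 0.778 and 4.42. The allograft ratio of Nrcam was 1.96, on the same side as in the lung tumours, with the 4 clusters held by both libraries weighted equally. That value carries no interval and rests on 4, 0, 5 and 4 Nrcam UMIs of preSC_WT in those clusters. Ncam1, at 1.00 and 0.889, also lay on either side of 1, but its lung interval (0.958 to 1.05) includes 1. With 1 library per group the difference between the pairs was not tested.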

How the results depend on the processing

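No paired analysis was possible because each group holds 1 library. In the lung tumours the count of members stayed at 1 under each alternative for which it was taken, apart from a 50 CPM minimum, which left 0. The ratio of Chl1 lay between 0.431 and 0.505, the latter without tumour cluster 8 and short of 2-fold. In the allografts the ratio of Chl1 lay between 0.000312 and 0.00101, of L1cam between 0.176 and 0.235, of Nrxn2 between 2.93 and 7.83 and of Nrxn3 between 1.61 and 11.4. For Nrxn3 the highest value came without cluster 15, 3.07 without cluster 0, and the lowest with the 4 clusters held by both libraries weighted equally. That equal weight also moved Nrcam to 1.96, Ncam2 to 1.83 and Nfasc to 1.14, and the clusters then held 52 to 94 cells of preSC_WT. For Nrcam and for Nrxn2 none of these clusters held more than 5 UMIs of preSC_WT. Genes of all kinds counted as different numbered 88 for the lung pair and 1804 for the allograft pair, but 312 and 3427 at 1.5-fold, 259 and 2981 at 5 CPM, and 43 and 1013 at 50 CPM. Members higher in tumour than in non-tumour cells went from 6 to 2 in the library labelled preSC_CracdKO at Leiden resolution 0.5. With tumour cells chosen by markers in each cell they went to 0 in that library and from 4 to 0 in CRPR2, the non-tumour cells then being those left over. Those left over include cells of tumour clusters that missed the marker rule. At resolution 0.5 a cluster with 153 cells of the library labelled preSC_CracdKO, led by Gm30835 and Alas2, was named erythroid and joined the non-tumour cells. At resolution 1.0 a cluster with 153 cells of that library was left unnamed because tumour genes led it. Beyond this and the thresholds themselves, the cause of these moves was not tested. Depth limits the lung levels of Nrxn3 and L1cam, which lay below 20 CPM, and the non-tumour levels of the library labelled preSC_CracdKO, which rest on 327 cells.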

Other observations

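Values of the members in cells that belong to no comparison above are given here without explanation. A cluster of CRPR2 that took no name, 497 cells led by genes that include Tm4sf1 and Spp1 at a median depth of 13329 UMIs, had Ncam1 at 83.7 CPM (78.0 to 89.8) with a UMI in 43.7% of cells. The other 7 genes lay between 0.106 and 2.11 CPM there. Ncam1 was thus the one gene of the 8 measured in that cluster above a few CPM. Mast-cell-like cells, too few for the comparison of classes, had L1cam at 192 CPM in RPR2 (5 UMIs in 8 cells) and 205 CPM in CRPR2 (6 UMIs in 23 cells), with lower limits of 62.2 and 75.1 CPM.

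The genes beside Chl1 on chromosome 6 were read in the allografts within 3 Mb. Cntn3, on the other strand upstream, was 8.41-fold lower in the library labelled preSC_CracdKO (773 and 91.9 CPM). Cntn4, downstream, was at 152 and 127 CPM, and Ppp4r2 at 104 and 115 CPM. Shq1 was at 16.1 and 23.5 CPM, Pdzrn3 at 0.445 and 4.49 CPM, and Cntn6, the nearest downstream, at 0.241 and 0.149 CPM. The near-absence of Chl1 in that library was therefore accompanied by a lower Cntn3 but not by a common direction over its neighbours.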
